A study of Mus musculus with 8 samples.

Results

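Small leucine-rich proteoglycan genes encode secreted proteins of the extracellular matrix, and 8 of them (*Dcn*, *Bgn*, *Aspn*, *Lum*, *Fmod*, *Prelp*, *Omd*, and *Ogn*) were followed here across regions of the infarcted mouse heart. They were taken by gene symbol from a table of estimated counts for 16994 genes, where each symbol had 1 row, and all 8 were among the 12999 genes tested, whose mean CPM, the count scaled to the size of the library, was 1 or more. RNA was sequenced as 1 library per group from WT and whole-body TIGAR knockout (TKO) mice, with 4 regions per genotype (left ventricle, infarct zone, border zone, and remote zone), which makes 8 libraries. Per the study's methods the mice were male and had the left anterior descending coronary artery permanently ligated at 16 weeks of age for the zones after myocardial infarction (MI), with the time from ligation to the collection of this tissue not given in the sources used here. The infarct zone libraries pooled 3 mice each. The pooling of the other regions is not given in the sources used here. Neither is whether the left ventricle, whose label names no zone, came from normal or sham-operated hearts. The knockout removes TIGAR, a fructose-2,6-bisphosphatase, from every tissue, so the groups do not separate heart muscle cells from the cells that make matrix.

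These proteins share a horseshoe-shaped core of leucine-rich repeats that binds fibrillar collagens and sets the spacing and thickness of their fibrils, and most carry chondroitin, dermatan, or keratan sulfate chains. In the heart they are made mainly by fibroblasts, and they are deposited with collagen when a scar replaces lost muscle. Decorin (*Dcn*), biglycan (*Bgn*), and asporin (*Aspn*) form class I, lumican (*Lum*), fibromodulin (*Fmod*), prolargin (*Prelp*), and osteomodulin (*Omd*) form class II, and osteoglycin or mimecan (*Ogn*) belongs to class III.

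Of the 8 genes, 7 lie in 3 groups of neighbors on the mouse genome (GRCm38, GENCODE M21). *Aspn*, *Omd*, and *Ogn* lie within 80.1 kb of chromosome 13 (49544443 to 49624501), all on the plus strand. *Dcn* and *Lum* lie within 93.1 kb of chromosome 10 (97479609 to 97572703), also on the plus strand. *Prelp*, on the minus strand, and *Fmod*, on the plus strand, lie within 138.0 kb of chromosome 1 (133910304 to 134048277). *Bgn* stands alone on chromosome X (73483602 to 73495933, plus strand). Exons of *Aspn* overlap those of *Cenpp* on the minus strand, and *Omd* and *Ogn* lie inside the same gene, but *Cenpp* had only 42 to 79 estimated counts in any library. Exons of *Prelp* overlap *Gm15851* on the plus strand, and since it is not stated whether the libraries kept strand, reads of overlapping genes could not be told apart.

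Promoter sequences are shown for 4 genes whose levels are compared most below: *Fmod*, with the largest difference between regions, *Bgn*, per kilobase the most abundant after *Dcn*, and the neighbors *Aspn* and *Ogn*, whose differences were unequal. Each is the 250 bases before the RefSeq start (GRCm38.p6), written 5′ to 3′ on the gene's own strand, and capitals mark matches on either strand to 5 short motifs: the TATA box with the letters TATAAA, the CCAAT box, the AP-1 motif with the letters TGANTCA, the TEAD motif with the letters GGAATG, and the SMAD motif with the letters CAGAC. The windows are chr1:134037004-134037253 for *Fmod*, chrX:73483351-73483600 for *Bgn*, chr13:49544193-49544442 for *Aspn*, and chr13:49607765-49608014 for *Ogn*, all on the plus strand.
Fmod: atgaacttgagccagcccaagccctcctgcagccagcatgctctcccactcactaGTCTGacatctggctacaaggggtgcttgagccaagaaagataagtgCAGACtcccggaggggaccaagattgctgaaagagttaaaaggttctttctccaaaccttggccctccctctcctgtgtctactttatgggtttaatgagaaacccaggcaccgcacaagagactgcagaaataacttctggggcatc
Bgn: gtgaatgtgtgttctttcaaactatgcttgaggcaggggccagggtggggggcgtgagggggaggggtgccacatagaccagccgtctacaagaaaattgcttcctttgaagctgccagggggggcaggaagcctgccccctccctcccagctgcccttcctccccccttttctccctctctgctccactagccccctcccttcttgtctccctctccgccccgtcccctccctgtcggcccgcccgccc
Aspn: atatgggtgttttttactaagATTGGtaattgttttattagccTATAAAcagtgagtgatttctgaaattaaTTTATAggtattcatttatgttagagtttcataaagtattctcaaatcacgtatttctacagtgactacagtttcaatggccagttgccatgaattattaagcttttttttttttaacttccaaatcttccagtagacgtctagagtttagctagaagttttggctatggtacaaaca
Ogn: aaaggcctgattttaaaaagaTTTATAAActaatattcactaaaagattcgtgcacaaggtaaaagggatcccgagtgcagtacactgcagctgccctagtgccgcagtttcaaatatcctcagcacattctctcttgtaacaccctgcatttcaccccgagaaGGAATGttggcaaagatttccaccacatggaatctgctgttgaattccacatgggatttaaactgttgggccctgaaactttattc
The *Fmod* window held 2 SMAD motifs, 195 and 148 bases before the start, and no other match. In *Bgn* there was no match to any of the 5 motifs, and 64.4% of the bases were G or C, against a median of 52.4% over 32851 promoters of the same length. The *Aspn* window was AT-rich, with 30% G or C, and held 2 TATA boxes, 207 and 178 bases before the start, and 1 CCAAT match at 229. The *Ogn* window held 2 overlapping TATA boxes at 229 and 227 bases and 1 TEAD motif at 86. Among the other genes, *Prelp* had 1 CCAAT and 1 SMAD match, *Omd* had none, and *Dcn* and *Lum* were not in the promoter table. Of all 32851 promoters, 12.4% held the TATA box, 33.8% CCAAT, 6.75% the AP-1 motif, 12.6% the TEAD motif, and 42.2% the SMAD motif. A match is a stretch of letters and not a measured binding site.

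Total estimated counts were 27429240 to 33799249 per library. *Tigar* had 1965, 1066, 2215, and 1997 counts in the WT left ventricle, infarct, border, and remote zone and 51, 87, 79, and 87 in the TKO libraries in the same order, so the genotype labels matched the libraries. The infarct zone libraries stood apart: mitochondrial DNA–encoded genes took 20.7% of counts in WT and 27.9% in TKO there against 36.6% to 39.3% in the other 6, and their scaling factors by edgeR's TMM method were 1.54 and 1.26 against 0.866 to 0.956. Heart muscle markers were present in all 8 libraries. Levels below are TMM-scaled CPM, and with 1 library per group a ratio between 2 libraries has no replicate check. Its 95% interval is an exact binomial interval on the counts and covers counting error only. The tests pooled the 8 libraries in 1 additive model of region and genotype (edgeR quasi-likelihood test, Benjamini-Hochberg adjustment over 12999 genes). The WT and TKO libraries of a region, or the regions of a genotype, stand in for replicates in these tests, whose p-values therefore say nothing about the spread between mice. The zones of a genotype may also come from the same hearts, since the sources used here do not say otherwise.

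All 8 genes were higher in the infarct zone than in the left ventricle, by 4.25-fold (*Dcn*) to 47.7-fold (*Fmod*) in WT and by 3.40-fold (*Dcn*) to 43.3-fold (*Fmod*) in TKO hearts. The summed level of the 8 genes was 808 CPM in the WT left ventricle and 5860 CPM in the WT infarct zone, and 862 and 4480 CPM in TKO. In both genotypes every gene had its highest level in the infarct zone, followed by the border zone, the remote zone, and the left ventricle. This order, chosen after the values were seen, was shared by 7.61% of the 12999 genes. *Omd* had 35 estimated counts in both the TKO border and the TKO remote zone, so its order there rests on the scaling. In bulk tissue, more cells that make a transcript and more transcript per cell cannot be told apart.

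Among class I, *Dcn*, whose product binds type I collagen and holds TGF-β, was measured at 411, 632, 742, and 1746 CPM in the WT left ventricle, remote, border, and infarct zone. In TKO hearts *Dcn* was at 459, 502, 549, and 1560.2 CPM in the same order. The infarct zone was thus the only region far above the rest, and the other 3 TKO libraries lay between 459 and 549 CPM. *Bgn*, which encodes a proteoglycan that signals through Toll-like receptors when it is released from the matrix, was at 165, 349.9, 616, and 2059 CPM in WT. Its TKO levels were 159.5, 216, 309, and 1414 CPM. *Bgn* stayed below *Dcn* per kilobase of transcript in all 8 libraries, and had more estimated counts than *Dcn* only in the WT infarct zone (87100 against 73846). *Aspn*, a class I member that binds collagen and TGF-β but is not a typical chain-bearing proteoglycan, was at 25.5, 63.0, 113, and 287 CPM in WT and at 26.7, 40.2, 49.9, and 217 CPM in TKO. The 2 left ventricles did not differ in *Aspn* beyond counting error (TKO over WT ratio 1.05, 95% interval, 0.943 to 1.17).

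Among class II, *Fmod*, which guides collagen fibril assembly and cross-linking and is abundant in tendon, was scarce in the left ventricle, where per kilobase *Omd* alone was lower, and had the largest fold difference. Its levels were 7.37, 30.0, 76.9, and 352 CPM in the WT left ventricle, remote, border, and infarct zone. The TKO levels were 5.83, 18.6, 29.2, and 252 CPM. Each zone after MI therefore lay above both left ventricles. *Prelp*, whose product ties basement membranes to the collagen around them, was at 46.2, 78.9, 121, and 524 CPM in WT and at 45.1, 59.9, 70.0, and 368 CPM in TKO. *Lum*, which controls collagen fibril thickness and is best known from the cornea, was at 49.0, 101, 144, and 442 CPM in WT and at 68.5, 71.5, 83.0, and 316 CPM in TKO. *Lum* in the TKO remote zone did not differ from the TKO left ventricle beyond counting error (ratio 1.04, 95% interval, 0.979 to 1.11). *Omd*, a keratan sulfate proteoglycan of bone, was the scarcest per kilobase, with 15 to 411 estimated counts. It reached 1.06, 1.74, 3.02, and 9.72 CPM in WT and 0.579, 1.16, 1.18, and 7.44 CPM in TKO.

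*Ogn*, the class III member and a matrix protein first described in bone, was at 103, 145, 174, and 441 CPM in the WT left ventricle, remote, border, and infarct zone. In TKO hearts it was at 96.6, 122, 140.0, and 345 CPM. *Ogn* resembled *Dcn* in its range, with an infarct zone level 4.27 times that of the left ventricle in WT (95% interval, 4.10 to 4.44) and 3.57 times in TKO (3.42 to 3.73).

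**Figure D1:**
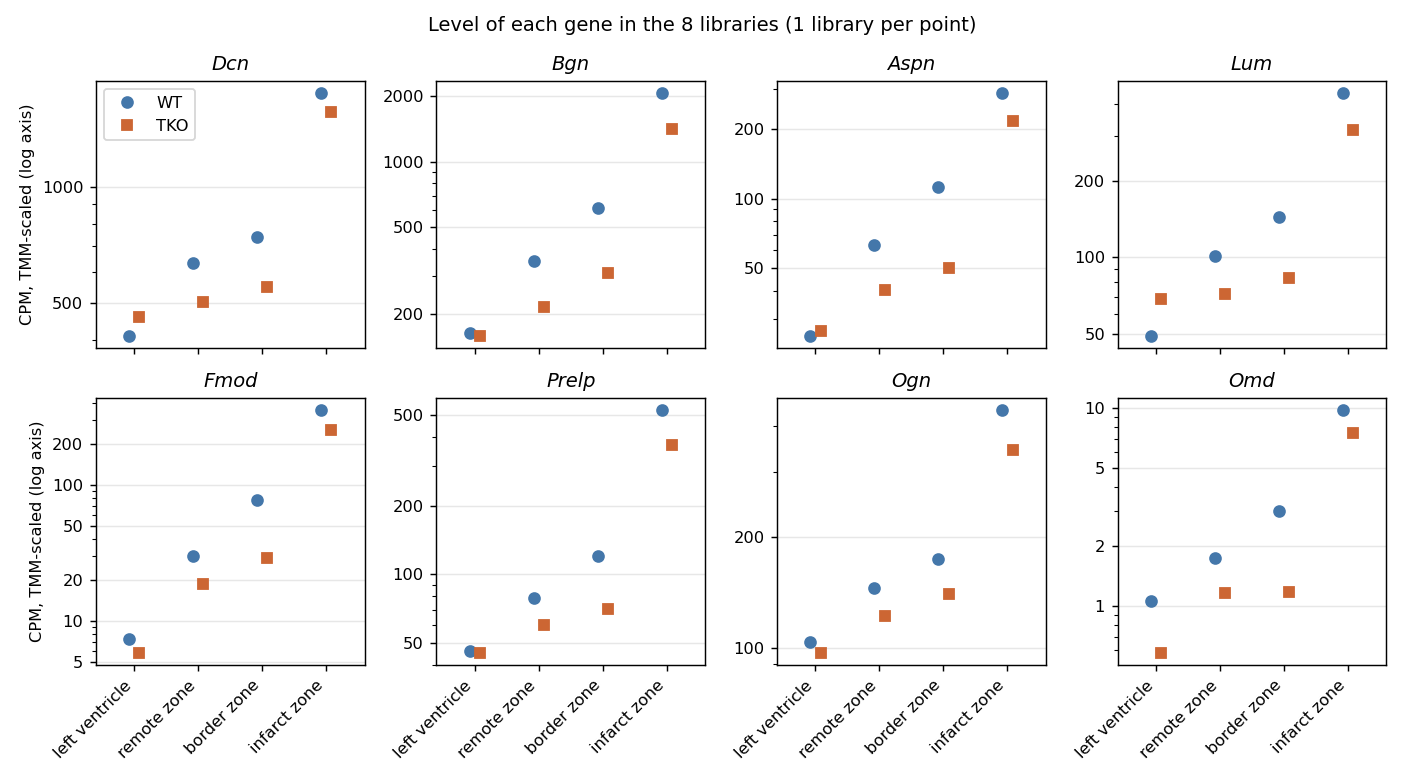
Level of each of the 8 genes in each library, in TMM-scaled CPM on a log axis with its own range per panel, with WT as circles and TKO as squares and 1 library per point. The infarct zone is highest in every panel, and TKO lies below WT in the remote, border, and infarct zones, whereas in the left ventricle TKO lies above WT for *Dcn*, *Aspn*, and *Lum*.

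With both genotypes in the model, all 8 genes were called higher in the infarct zone than in the left ventricle (edgeR adjusted p of 0.000228 to 0.00125), against 28.2% of the 12999 genes called higher. *Fmod* had a log2 difference of 5.51 ± 0.30 (SE), the 50th highest of 12999. *Omd* (3.44 ± 0.33), *Bgn* (3.37 ± 0.26), *Prelp* (3.25 ± 0.20), and *Aspn* (3.23 ± 0.29) formed a middle group whose standard errors overlap. *Lum* followed at 2.63 ± 0.31, and *Ogn* (1.96 ± 0.13) and *Dcn* (1.92 ± 0.20) were lowest. Differences between genes, which share the same libraries, were not tested. The median log2 difference of the 8 genes was 3.24, and that of all genes tested was 0.02. In single libraries, counted after a prior count of 2 was added to each gene, each of the 8 was raised at least 2-fold in the infarct zone, in WT as in TKO, against 18.8% of genes in WT and 16.2% in TKO. The infarct zone also exceeded the border zone for all 8 genes, by log2 differences of 1.32 ± 0.13 (*Ogn*) to 2.62 ± 0.25 (*Fmod*; edgeR adjusted p of 0.00245 to 0.00720), against 21.6% of genes called higher. Without the TKO border zone library, *Fmod*, *Prelp*, and *Ogn* alone were called higher than in the border zone, against 2.66% of genes in that fit. Without the WT border zone library 7 of 8 were, *Dcn* being the exception, against 5.03% of genes.

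In the border zone *Fmod* alone was called higher than in the left ventricle, by a log2 difference of 2.89 ± 0.27 (edgeR adjusted p = 0.0300), against 0.669% of genes called higher. The call did not hold without the WT border zone, the WT remote zone, or the TKO remote zone library, where 0 members and 0.0153%, 0.00766%, and 0.00766% of genes were called higher, and rose to 5 members (*Bgn*, *Aspn*, *Lum*, *Fmod*, and *Prelp*) without the TKO left ventricle, where 2.27% of genes were called higher. The fits without the WT and without the TKO remote zone library were nearly the same fit and do not count as separate checks. With all libraries, the 7 members other than *Fmod* had log2 differences of 0.55 ± 0.19 (*Dcn*) to 1.53 ± 0.28 (*Aspn*) with edgeR adjusted p of 0.0675 to 0.230. DESeq2's Wald test called 6 of the 8, against 3.66% of genes called higher by that test. By single libraries, 6 of the 8 reached a 2-fold difference between WT border zone and WT left ventricle (background 5.45% of genes), all but *Dcn* and *Ogn*. In TKO only *Fmod* did (background 4.42%), with a ratio without the prior count of 5.0 (95% interval, 4.20 to 5.99) against 10.4 in WT (9.03 to 12.1). *Omd* in TKO was at 2.04 (1.08 to 4.01) without the prior count and below 2-fold with it. The border zone level of *Aspn* was 4.42 times that of the left ventricle in WT (4.07 to 4.80) and 1.87 times in TKO (1.70 to 2.05).

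In the remote zone 0 of 8 genes were called, and 0% of all genes, although 1378 genes, 6 of the 8 among them, had an unadjusted p under 0.05 with edgeR. DESeq2's Wald test called 162 genes, 0.977% of genes being called higher, and *Fmod* was the only member. The log2 differences from the left ventricle were 0.37 ± 0.19 (*Dcn*) to 0.92 ± 0.27 (*Aspn*) for 7 genes and 1.85 ± 0.27 for *Fmod* (edgeR adjusted p = 0.170). In WT, *Bgn*, *Aspn*, *Lum*, and *Fmod* reached a 2-fold difference between remote zone and left ventricle (background 3.42%). In TKO *Fmod* alone did so (background 3.11%), with a ratio without the prior count of 3.18 (95% interval, 2.66 to 3.84), and *Omd* was at 2.01 (1.07 to 3.96) without the prior count and below 2-fold with it. The remote zone libraries also held the highest levels of atrial muscle genes in their genotype, *Nppa* apart. The atrial light chain *Myl7* was at 172 CPM in WT and 67.5 CPM in TKO there, against 1.23 to 16.1 CPM in the other 6 libraries, and its part in the levels of the 8 genes was not tested.

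**Figure D2:**
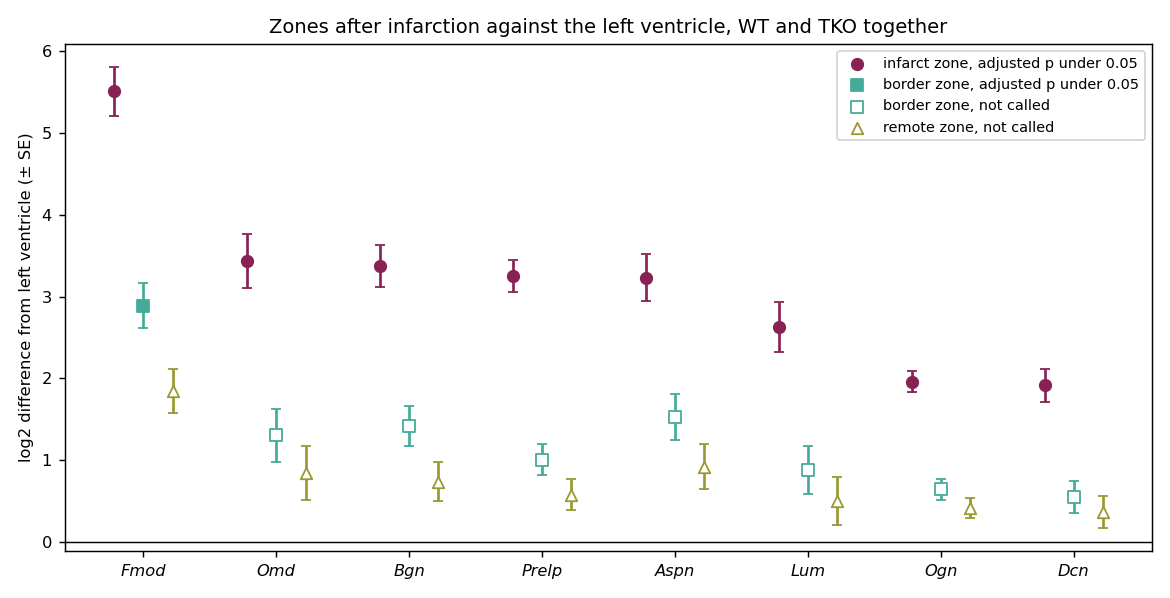
Log2 difference of the infarct (circles), border (squares), and remote zone (triangles) from the left ventricle for each gene, from the additive fit over 8 libraries, with bars for the SE and filled symbols for edgeR adjusted p under 0.05. All 8 infarct zone values are filled, from 1.92 to 5.51, *Fmod* is the only filled border zone value, and none of the remote zone is filled.

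The make-up of the group changed with the region. Per kilobase of transcript, *Dcn* was the most abundant member in all 8 libraries, followed by *Bgn*. The share of *Dcn* in the summed CPM per kb of the 8 genes was 60.1%, 54.4%, 46.3%, and 38.5% in the WT left ventricle, remote, border, and infarct zone. In TKO hearts it was 62.4%, 58.1%, 53.9%, and 44.1%. The share of *Bgn* went the other way, from 17.5% to 33.0% between the left ventricle and the infarct zone in WT and from 15.7% to 29.0% in TKO. *Fmod* went from 0.608% to 4.37% in WT and from 0.446% to 4.02% in TKO, while *Ogn* went from 10.4% to 6.66% and from 8.99% to 6.67%. A ratio of 2 genes within a library does not depend on how libraries are scaled. The count ratio of *Bgn* to *Dcn* was 0.401 (95% interval, 0.387 to 0.415), 0.553 (0.540 to 0.567), 0.830 (0.814 to 0.846), and 1.18 (1.17 to 1.19) in the WT left ventricle, remote, border, and infarct zone. In TKO it was 0.347 (0.335 to 0.360), 0.429 (0.417 to 0.442), 0.563 (0.549 to 0.578), and 0.906 (0.896 to 0.917). It was thus lower in TKO than in WT in each of the 4 regions, by more than counting error, and about 2.94-fold (WT) and 2.61-fold (TKO) higher in the infarct zone than in the left ventricle.

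Against *Col1a1*, the chain of type I collagen that decorin binds, the members diverged within libraries. The count ratio of *Dcn* to *Col1a1* was 4.89 in the left ventricle and 1.70 in the infarct zone of WT and 5.90 and 1.90 in TKO. For *Bgn* the ratio was 1.96 and 2.01 in WT and 2.05 and 1.72 in TKO. For *Fmod* it was 0.0877 and 0.343 in WT and 0.0749 and 0.307 in TKO. Relative to this collagen, *Dcn* was therefore lower and *Fmod* higher in the infarct zone. *Bgn* was nearly level in WT and lower in TKO, at 0.840 times its left ventricle ratio. Against *Pdgfra*, a marker of resident fibroblasts, the ratio of *Dcn* was 12.4 in the left ventricle and 18.5 in the infarct zone of WT and 11.0 and 19.8 in TKO. The ratio of *Fmod* to the same gene covered a wider range, from 0.223 to 3.72 in WT and from 0.139 to 3.21 in TKO. *Pdgfra* had the smallest infarct zone difference of the 10 fibroblast markers used below (log2 difference 1.21, list median 1.95), so ratios to it depend on this choice. The sum of those markers was 5.53-fold (WT) and 4.92-fold (TKO) higher in the infarct zone than in the left ventricle. *Dcn* was 4.25-fold and 3.40-fold higher.

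**Figure D3:**
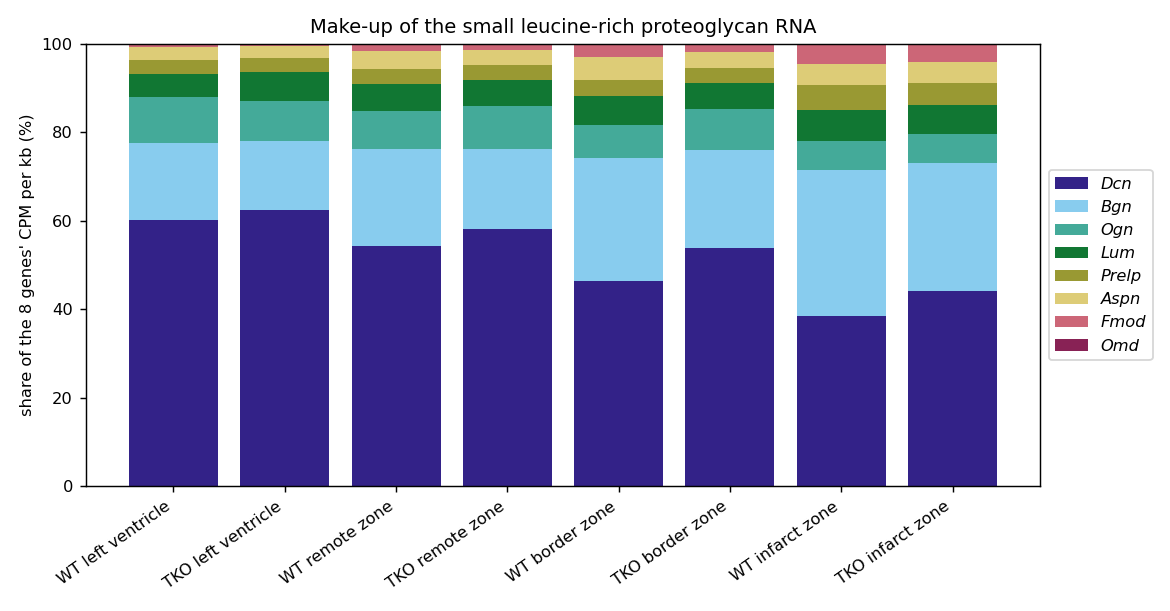
Share of each gene in the summed CPM per kb of the 8 genes, in percent, with 1 bar per library grouped by region. The *Dcn* segment shrinks from 60.1% and 62.4% in the left ventricles to 38.5% and 44.1% in the infarct zones, and the *Bgn* and *Fmod* segments grow.

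Neighbors on a chromosome did not change by the same amount. On chromosome 13 the count ratio of *Aspn* to *Ogn* was 0.246 (95% interval, 0.227 to 0.268) in the WT left ventricle and 0.651 (0.636 to 0.666) in the WT infarct zone, and 0.276 (0.254 to 0.301) and 0.630 (0.612 to 0.648) in TKO. In the border zone the same ratio was 0.645 in WT and 0.356 in TKO. For *Fmod* over *Prelp* on chromosome 1, the ratio was 0.160 in the left ventricle and 0.672 in the infarct zone of WT and 0.129 and 0.687 in TKO. For *Lum* over *Dcn* on chromosome 10, it was 0.119 and 0.253 in WT and 0.149 and 0.202 in TKO. In each of these pairs the same partner gained on the other in both genotypes, and the gain of *Lum* on *Dcn* was 2.12-fold in WT and 1.36-fold in TKO. *Omd*, also on chromosome 13, was 9.18-fold (95% interval, 6.30 to 13.9) higher in the infarct zone in WT and 12.8-fold (7.65 to 23.3) in TKO. *Aspn* was 11.3-fold and 8.13-fold higher, so the order of these neighbors differed between genotypes, within the counting error of *Omd*.

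All 8 genes were lower in TKO than in WT hearts in the infarct, border, and remote zones, a pattern shared by 26.3% of the 12999 genes. By the median the gap was widest in the border zone, where TKO over WT had a median of 0.540 over the 8 genes and of 0.999 over all genes. There *Fmod* was at 29.2 CPM in TKO against 76.9 in WT, a ratio of 0.379 (95% interval, 0.350 to 0.410), *Omd* at a ratio of 0.391 (0.257 to 0.582), and *Aspn* at 0.443 (0.417 to 0.471). These 3 were at least 2-fold lower (background 3.26% of genes), and *Bgn* fell just short of the limit at 0.502 (0.489 to 0.514). *Lum* (0.577), *Prelp* (0.580), *Dcn* (0.739), and *Ogn* (0.803) followed. *Ogn* alone had its lowest ratio in the infarct zone (0.782; 0.764 to 0.800). In the remote zone the ratios ran from 0.616 (*Bgn*; 0.597 to 0.635) to 0.841 (*Ogn*; 0.805 to 0.879), with a median of 0.686, and the interval of 7 genes lay below 1, *Omd* being the exception (0.667; 0.423 to 1.04). In the infarct zone they ran from 0.687 (*Bgn*; 0.679 to 0.694) to 0.894 (*Dcn*; 0.884 to 0.904), with a median of 0.737. In neither of these zones was any of the 8 at least 2-fold lower, against 2.39% of genes in the remote and 1.43% in the infarct zone.

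In the left ventricle 3 genes were higher and 5 lower in TKO, with a median ratio of 0.973. *Lum* was 1.40-fold (95% interval, 1.30 to 1.50) and *Dcn* 1.12-fold (1.09 to 1.15) the WT level, *Fmod* was at 0.791 (0.636 to 0.982) and *Ogn* at 0.935 (0.886 to 0.987), and the intervals of *Bgn*, *Aspn*, *Prelp*, and *Omd* held 1. None was at least 2-fold lower (background 3.62%). Fat cell genes differed between these 2 libraries, with the hormone gene *Adipoq* at 13.5 CPM in WT and 0.23 in TKO and the lipid droplet gene *Cidec* at 14.2 and 0.23.

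**Figure D4:**
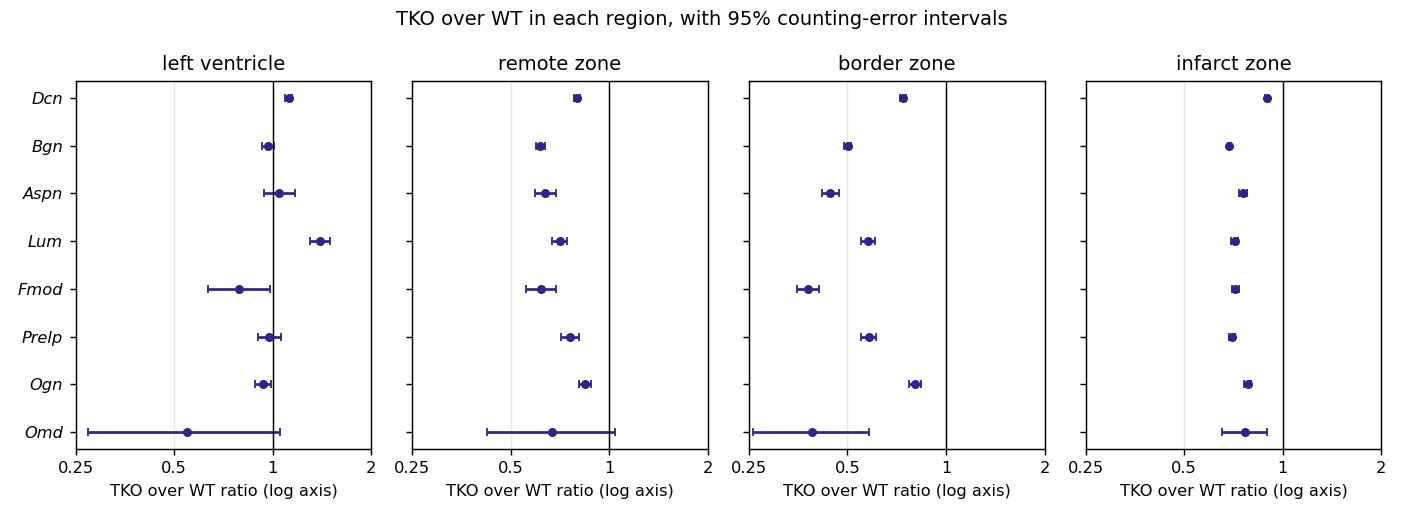
TKO over WT ratio of each gene in each region, on a log axis, with bars for the 95% binomial interval of counting error and a line at 1. The points scatter around 1 in the left ventricle, between 0.547 and 1.40, and lie below 1 in the 3 zones after MI, lowest in the border zone at 0.379 (*Fmod*).

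Across the 4 regions, 0 of 8 genes were called lower in TKO by edgeR, against 0.0615% of genes, and DESeq2's Wald test called *Bgn* and *Fmod*, against 1.65% of genes called lower by that test. The log2 differences were negative for all 8, from −0.19 ± 0.14 (*Dcn*) to −0.75 ± 0.18 (*Fmod*) and −0.77 ± 0.22 (*Omd*), with a median of −0.49 (all genes 0.00) and edgeR adjusted p of 0.191 to 0.502. At an unadjusted p under 0.05 there were 6 members and 2109 genes. Whether the genotype difference in 1 region departed from that of the other 3 was tested with an added term. For the left ventricle 0 of 8 genes were called, against 0.646% of genes. *Lum* had the lowest adjusted p, with a departure of 1.08 ± 0.20 on the log2 scale (edgeR adjusted p = 0.0999), and DESeq2's Wald test called it alone, against 2.15% of genes. At an unadjusted p under 0.05 with edgeR there were 2 members and 2179 genes. Without the WT or without the TKO infarct zone library, the infarct zone library that remained was fitted by its own region term. These 2 fits were therefore nearly the same. They compared the left ventricle with the border and remote zones only, with 1 residual degree of freedom. Departures in them were 0.54 (*Dcn*) to 1.13 (*Lum*) for *Dcn*, *Bgn*, *Aspn*, *Lum*, and *Prelp*. For the infarct zone 0 of 8 were called, against 0.00769% of genes, with departures of −0.21 ± 0.49 (*Lum*) to 0.56 ± 0.46 (*Omd*). At an unadjusted p under 0.05 there were 0 members and 1018 genes, and DESeq2's Wald test called no member, against 13.3% of the 2162 genes to which it gave an adjusted p, *Omd* not among them.

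Other genes of the same pathway moved in the infarct zone to different degrees. Of the 5 other small leucine-rich repeat proteoglycan genes that could be tested, 4 were called higher than in the left ventricle: *Ecm2* (log2 difference 1.71 ± 0.16), *Chad* (2.99 ± 0.49), *Tsku* (1.15 ± 0.32), and *Podn* (2.15 ± 0.10). The *Tsku* call was lost without the WT left ventricle or either infarct zone library. *Chadl* stood at 0.11 ± 0.43 (edgeR adjusted p = 0.846), and *Epyc*, *Optc*, *Nyx*, and *Podnl1* were below a mean of 1 CPM. *Podn*, or podocan, was also called in the border zone (0.99 ± 0.10, edgeR adjusted p = 0.0300). All 11 collagens that these proteoglycans bind were called higher, with a median of 3.71, among them *Col1a1* (3.50 ± 0.22), *Col1a2* (3.71 ± 0.25), and *Col3a1* (3.84 ± 0.43). In the border zone 4 of these 11 (*Col1a1*, *Col1a2*, *Col12a1*, and *Col14a1*) were called higher, and each of these calls was lost without the WT border, the WT remote, or the TKO remote zone library. The border zone call of *Podn* was lost without any 1 of the 6 libraries after MI. For these border zone calls, the fits without either remote zone library were nearly the same, as were those without either infarct zone library. Losses in such fits do not count as separate checks.

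The enzymes that build the sugar chains had smaller median differences. Of 20 genes of chondroitin and dermatan sulfate synthesis, 14 were called higher and 2 lower, with a median of 1.12, and with total counts in place of TMM 18 were called higher and 0 lower. Total counts raised the calls over all genes too, with 7869 of 12999 called higher against 3670 with TMM. The chain polymerizing factor *Chpf* was higher (1.62 ± 0.11), as was *Csgalnact2* (0.94 ± 0.14), which starts chondroitin chains, and the xylose kinase *Fam20b* was lower (−0.73 ± 0.13), a call that total counts did not give (−0.054). For keratan sulfate, 2 of 5 were called higher, with a median of 0.26, and all 5 were with total counts. *B3gnt2* was one of the 2 (0.54 ± 0.18), a call that held in 2 of 8 fits with a library left out, while *B4galt1* (0.12 ± 0.11) and *B4galt4* (0.22 ± 0.31) were not called. Of 11 proteases that cleave these proteoglycans or their precursors, 9 were called higher, with a median of 1.88, among them the procollagen and probiglycan protease *Bmp1* (2.34 ± 0.19), the gelatinase *Mmp2* (2.98 ± 0.26), and *Adamts1* (0.97 ± 0.19). Of 19 growth factors and receptors that these proteoglycans bind, 17 were called higher and 1 lower, with a median of 1.70. The matricellular factor *Ccn2* (2.93 ± 0.35) and the endocytic receptor *Lrp1* (2.40 ± 0.13) were higher, and *Kdr*, the VEGF receptor of endothelium, was lower (−0.96 ± 0.15), but not called with total counts (−0.28). Between genotypes the median TKO minus WT log2 difference was −0.48 for the collagens, −0.41 for the proteases, −0.29 for the growth factors and receptors, −0.20 for chondroitin and dermatan sulfate synthesis, −0.14 for keratan sulfate synthesis, and −0.29 for the other proteoglycans.

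**Figure D5:**
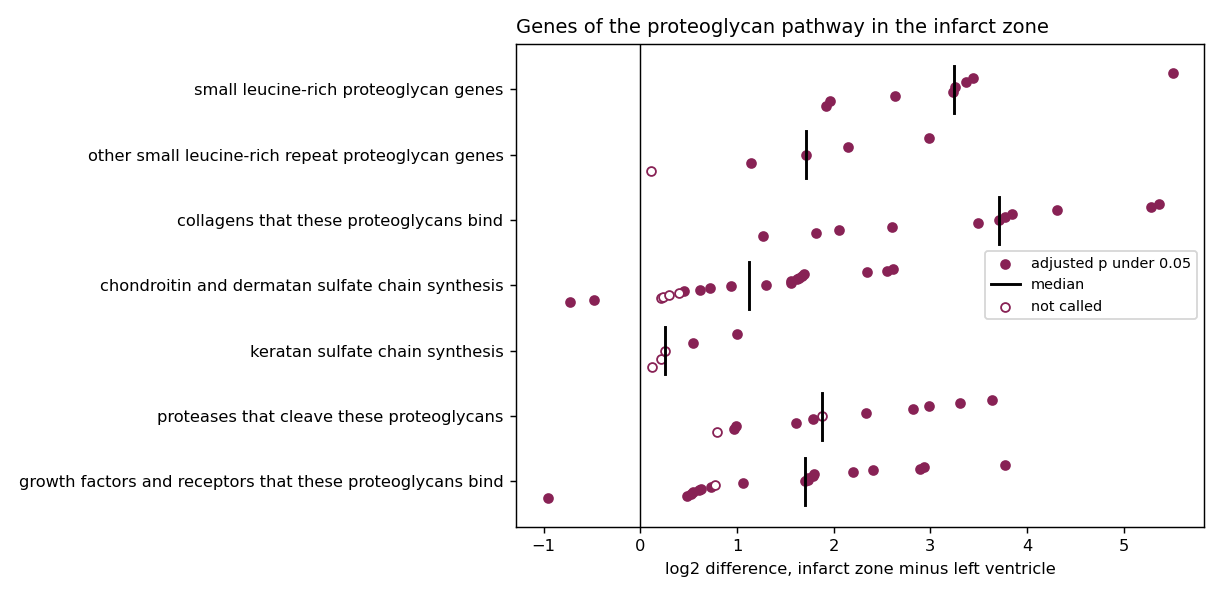
Log2 difference between infarct zone and left ventricle for each tested gene of the 8 members and 6 related lists, with filled points for edgeR adjusted p under 0.05 and a bar at each list's median. Members and collagens have the highest medians (3.24 and 3.71), and keratan sulfate synthesis the lowest (0.26).

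Markers of several cell types moved along with the 8 genes. The summed level of 10 fibroblast markers was 1592 to 1636 CPM in the left ventricles and 7823 to 9054 CPM in the infarct zones, and all 10 were called higher. Their WT sum was 3197 CPM against 2269 CPM for TKO border zone tissue and 2172 against 1806 CPM for remote zone tissue. Most of the border zone gap lay in *Col1a1*, *Col1a2*, and *Col3a1*, which are also among the collagens above. They were at 308, 475, and 823 CPM in WT and 172, 259, and 349 CPM in TKO. *Gsn*, the most abundant of the 10, alone went the other way there (1133 CPM in WT, 1196 in TKO). The 8 activated fibroblast markers summed to 158 to 175 CPM in the left ventricles and 1383 to 1786 in the infarct zones, and all 8 were called higher. They stood at 829 CPM (WT) and 357 CPM (TKO) for the border and at 427 and 209 CPM for the remote zone, ratios of 0.431 and 0.491. In the border zone *Postn*, the most abundant of the 8, was at 450 CPM in WT and 151 in TKO. *Acta2* was higher in TKO there (80.3 CPM in WT, 95.3 in TKO), and was at 80.7 and 78.5 CPM in the remote zone. Cardiomyocyte markers were opposite to the fibroblast markers, with 7 of 8 called lower in the infarct zone and 1 higher. Some of these calls on cardiomyocyte markers, including the higher call, were lost when a library was left out. Their sum was 35004 to 37803 CPM in the left ventricles, 8475 in the WT and 17575 in the TKO infarct zone, 27406 (WT) and 33543 (TKO) in the border zone, and 29735 (WT) and 34411 (TKO) in the remote zone.

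Leukocyte markers summed to 69.3 to 90.6 CPM in the left ventricles and 251 to 337 in the infarct zones (6 of 7 called higher), and *Ptprc*, the common leukocyte antigen, was called lower in TKO (log2 difference −0.67 ± 0.07, edgeR adjusted p = 0.0431). That call was lost without any 1 of the 6 libraries after MI, and the edgeR adjusted p with a library left out ran from 0.0384 to 0.359. Cartilage, valve, and tendon markers summed to 19.6 to 20.8 CPM in the left ventricles and 877 to 1330.0 in the infarct zones (5 of 7 called higher), and *Comp*, a matrix protein of cartilage and tendon, had a log2 difference of 6.45 ± 0.46. Epicardial and mesothelial markers went from 5.64 to 12.2 CPM to 52.4 to 78.1 (5 of 6 called higher). Atrial muscle markers were at 189 and 299 CPM in the WT and TKO left ventricle, 2564 and 701 in the remote, 1726 and 494 in the border, and 3046 and 2093 in the infarct zone, so the sum too was lower in TKO in the 3 zones. *Nppa*, the atrial natriuretic peptide gene, made up most of it (2987 CPM in the WT infarct zone) and was the only 1 of 5 called higher in the infarct zone, whereas the other 4 were highest in the remote zone of each genotype, as for *Myl4* (279 CPM in the remote and 34.6 in the infarct zone of WT, 110.4 and 4.95 in TKO). Endothelial markers summed to 491 to 672 CPM over the 8 libraries, with 1 of 6 (*Kdr*) called lower in the infarct zone. With total counts 5 of 6 were called higher and 0 lower, against 7869 of 12999 genes called higher with that scaling. Mural cell markers summed to 629 to 716 CPM, and 4 of 6 were called higher in the infarct zone. *Rgs5*, the most abundant of them, was called lower (log2 difference −0.52), which held in 1 of 8 fits with a library left out and turned to 0.15, not called, with total counts. Adipocyte markers summed to 259 to 699 CPM, most of it *Fabp4*, and 2 of the 3 tested, *Adipoq* and *Cidec*, had a TKO minus WT difference in the left ventricle that was called below that of the other 3 regions. None of the marker genes was at 3 counts or fewer in all 8 libraries. The part of these cell types in the levels of the 8 genes was not tested.

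The 8 genes followed each other closely over the libraries. Pearson's r of log2 CPM over 8 libraries was 0.9599 (*Lum* and *Omd*) to 0.9978 (*Prelp* and *Ogn*) in 28 pairs, as a description of points that share libraries and the large gap between the infarct zone and the rest. For each member 746 (*Fmod*) to 1319 (*Ogn*) genes had an r above 0.95. Most like *Dcn* were *Ptk7* (r = 0.9988), *Dpt*, and *Plxdc2*, and most like *Bgn* were *Gpr132* (0.9989), *Tgfbi*, and *Frzb*. *Aspn* was most like *Nox4* (0.9980), *Mfap4*, and *Nkd2*, and *Lum* was most like *Itm2a* (0.9985) and *P2rx7*. *Fmod* was nearest to *Fibin* (0.9980), *Angptl7*, and *Gxylt2*, and *Prelp* to *Capn5* (0.9994), *Farp1*, and *Plxdc2*. For *Ogn* the nearest were *Dse* (0.9998), *Fndc3a*, and *Ptprf*. *Omd* was nearest to *Itgam* (0.9962), *Apbb1ip*, and *Spn*.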

How the data were processed

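The authors trimmed reads with Trim Galore 0.6.5, used Kallisto 0.46 for transcript abundance on the mm10 reference, combined transcripts into genes (tximport), and worked with edgeR 3.34.1. The deposited table holds estimated counts as whole numbers, not normalized, per the file headers for 8 libraries. Library totals of 27429240 to 33799249 limit precision only for the scarcest genes. Pseudoalignment shares reads between overlapping transcripts, which could move reads between *Aspn* and *Cenpp*.

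Counts were scaled by TMM over 12999 genes (mean CPM of 1 or more) and tested in R 4.3.3 with edgeR 4.0.16 (quasi-likelihood, region plus genotype, 3 residual degrees of freedom, 2 with a departure term). Leaving out a library took 1 residual degree of freedom from each fit. The other library of that region was then fitted by its own region term. Leaving out the WT or the TKO library of a region thus gave nearly the same fit for the genotype test and for contrasts of other regions. Calls had an adjusted p under 0.05. The SE of a log2 difference was worked back from the edgeR test, as its size over the square root of the F statistic. DESeq2 1.42.0, other scalings and filters, and leaving out each library were alternatives. The steps for the genotype test and the infarct zone against the left ventricle were tested on simulated data and recovered most genes changed 4-fold. The infarct zone departure was simulated too, with no limit set on the share recovered. Apart from the changed genes, the simulated libraries shared the same gene means and spread, unlike the real regions. Counts of 2-fold differences used a prior count of 2, and intervals are Clopper-Pearson (95%). Lengths are the longest GENCODE M21 transcript matched to a RefSeq mRNA, and promoters came from RefSeq (6 of 8 genes).

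The members and lists were chosen with earlier results of these data known. Named were all 8 members, *Tigar*, the other proteoglycans of that list, the 3 genes of highest mean CPM in every other list, and the 3 genes nearest to each member by Pearson's r. A gene that this rule names for *Lum* is not reported here. Marker lists are given by their sums, with only the genes of this rule that touch a result named, and *Pdgfra*, *Cenpp*, *Col12a1*, and *Col14a1* were added outside it after their values were seen. *Kera*, *Chst13*, and *Chst5* were not analysed here. Python 3.11.15 was used with pandas 2.3.3, numpy 2.4.6, scipy 1.17.1, and matplotlib 3.10.9.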

Additional observations from a re-analysis of the deposited data

How the results depend on the processing

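All 8 genes were called higher in the infarct zone than in the left ventricle under every alternative, including each library left out, where all-gene calls were 4716 to 7243 against 7385. With total counts in place of TMM, the infarct zone shifted by 0.68 on the log2 scale against the left ventricle and by −0.29 for TKO over WT. This moved the members' median infarct zone ratio from 10.2 to 18.2 in WT and from 8.14 to 11.8 in TKO, and the median TKO over WT ratio from 0.737 to 0.601 in the infarct and from 0.540 to 0.504 in the border zone, with no change of direction. All-gene calls became 7869 higher of 8953 against 3670 of 7385 (infarct zone against left ventricle), 7475 of 8213 against 2814 of 5656 (against border zone), 12 of 56 against 10 of 18 (TKO against WT), and 143 of 275 against 29 of 84 (left ventricle departure). Members called then were 3 against 1 (border), 1 against 0 (remote), and 1 against 0 (left ventricle departure). Of all 12999 genes, 189 against 87 were then called higher in the border zone and 15 against 0 in the remote zone. By DESeq2's Wald test the members called were 6 (border), 1 (remote), 2 (TKO against WT), and 1 (left ventricle departure). Leaving out 1 library gave 0 to 5 members in the border zone, 3 to 8 against the border zone, and 0 to 5 for the left ventricle departure. All-gene calls then ranged from 3 to 72 (TKO against WT, 18 in all libraries), 1 to 388 (border, 93), 0 to 65 (remote, 0), 410 to 6879 (infarct against border, 5656), 0 to 926 (infarct departure, 1), and 0 to 1462 (left ventricle departure, 84). Over the other 5 alternatives they ranged from 14 to 342, 75 to 576, 0 to 162, 5521 to 8213, 0 to 288, and 94 to 280 in the same order. No departure of a single gene that changed sign was called. With total counts these were *Dcn* (−0.21), *Bgn* (−0.21), and *Aspn* (−0.059) for the infarct zone and *Omd* (0.026) for the left ventricle. With a library left out, infarct zone departures ranged from −0.079 to 0.22 (*Dcn*), −0.17 to 0.31 (*Bgn*), −0.11 to 0.52 (*Aspn*), −0.47 to 0.16 (*Lum*), and −0.30 to 0.083 (*Prelp*), and that of the left ventricle from −0.41 to 0.11 (*Omd*). The cause of these changes was not tested. No paired analysis was possible because the labels give no replicate numbers, with 1 library per group. Depth limits *Omd*, with as few as 15 counts, and no depth makes up for missing replicates.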
